A study of Mus musculus with 16 samples.

Results

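The Wnt pathway genes measured here are 54 named genes of the mouse genome, taken from 22247 protein-coding genes. They were listed by role, as 19 Wnt ligands, 12 receptors, 8 transducers and members of the destruction complex, 4 nuclear factors and 11 inhibitors. For each gene the mean methylation level was taken over its CpGs in 2 regions. The TSS window reached 2 kb to either side of each annotated transcription start site (TSS), and the gene body was the rest of the transcribed span. A level needed at least 2 CpGs, and the reads of both strands of a CpG were summed.

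In the canonical Wnt pathway, secreted Wnt ligands bind Frizzled receptors and the co-receptors Lrp5 and Lrp6. Without a ligand, a destruction complex built on Axin and Apc lets Gsk3b phosphorylate β-catenin, the product of Ctnnb1, which is then degraded. With a ligand, Dishevelled proteins disable that complex, and β-catenin enters the nucleus and acts with the Tcf/Lef factors on target genes. Secreted inhibitors of the Sfrp and Dkk families act outside the cell. In mouse embryonic stem cells (mESCs) the pathway is known for its part in self-renewal and in the exit towards mesoderm and endoderm. CpG-rich starts of genes are mostly free of methylation in mammalian cells, whereas the bodies of genes are mostly methylated.

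DNA methylation was measured by reduced representation bisulfite sequencing (RRBS), which reads CpGs mainly in CpG-rich parts of the genome, in 16 libraries of 8 conditions with 2 replicates each. Every condition descends from the E14 line of mESCs, and mESCs were grown in serum with LIF. YP-mESCs (young passage) had been kept for about 14 passages and OP-mESCs (old passage) for about 70. OP-S33Y #1 and OP-S33Y #2 are single E14 clones that overexpress β-catenin with the S33Y change, a form that escapes degradation, and were kept in culture as long as the OP-mESCs. The other 4 conditions carry a lentiviral short hairpin RNA, a control (shCtrl) or one against β-catenin (shβcat), and derive from YP-mESCs. They were sampled as mESCs and as embryoid bodies (EBs) at day 8, which are aggregates that differentiate without LIF into a mix of cell types. The labels do not say whether 2 replicates came from separate cultures, so p-values measure the spread between these libraries, which may be technical.

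Libraries held 18919219 to 40519010 reads on CpGs, and 413282 to 1152971 CpGs with a median of 22 to 42 reads each. OP-mESC replicate 2 had the fewest CpGs and no TSS-window value for Wnt10a, Dvl2, Dkk2 and Dkk3. Of the 54 genes, 50 had a TSS-window value in at least 1 library and 45 in all 16, with a median of 71 CpGs per gene and library. No CpG was read in the windows of the ligands Wnt8b and Wnt16, the inhibitor Dkk4 and Rnf43, a ligase that removes Frizzled receptors from the cell surface. In gene bodies 46 genes had a value in at least 1 library and 35 in all 16, with a median of 24 CpGs. As a check of the labels, all 5 pluripotency genes that could be tested had risen at TSS windows between shCtrl mESCs and shCtrl EBs, among them Pou5f1 (Oct4) from 0.0865% ± 0.122 to 15.4% ± 1.82 (SD, n = 2 each, adjusted p = 5.15e-06 by edgeR). A level is an average over the cells and alleles of a culture, so a larger share of methylated alleles and a change in every cell cannot be told apart.

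The TSS windows of the Wnt pathway genes were little methylated and their bodies heavily methylated in every condition. In YP-mESCs the median over the genes was 1.63% at TSS windows and 70.8% in bodies, with 38 of 49 windows under 5%. Among the ligands the window of Wnt10a was highest at 16.5% and that of Wnt9b lowest at 0.503%, as means of both YP-mESC libraries. Fzd9 (12.6%) and Fzd3 (0.221%) were the extremes of the receptors, and Dvl2 (13.8%) and Axin1 (0.175%) those of the transducers and the destruction complex. For the nuclear factors they were Tcf7 (7.19%) and Tcf7l1 (0.287%), and for the inhibitors Dkk2 (9.40%) and Znrf3 (0.264%). Ligands had the highest median of any role, 3.21%, against 0.811% for the receptors.

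**Figure D1:**
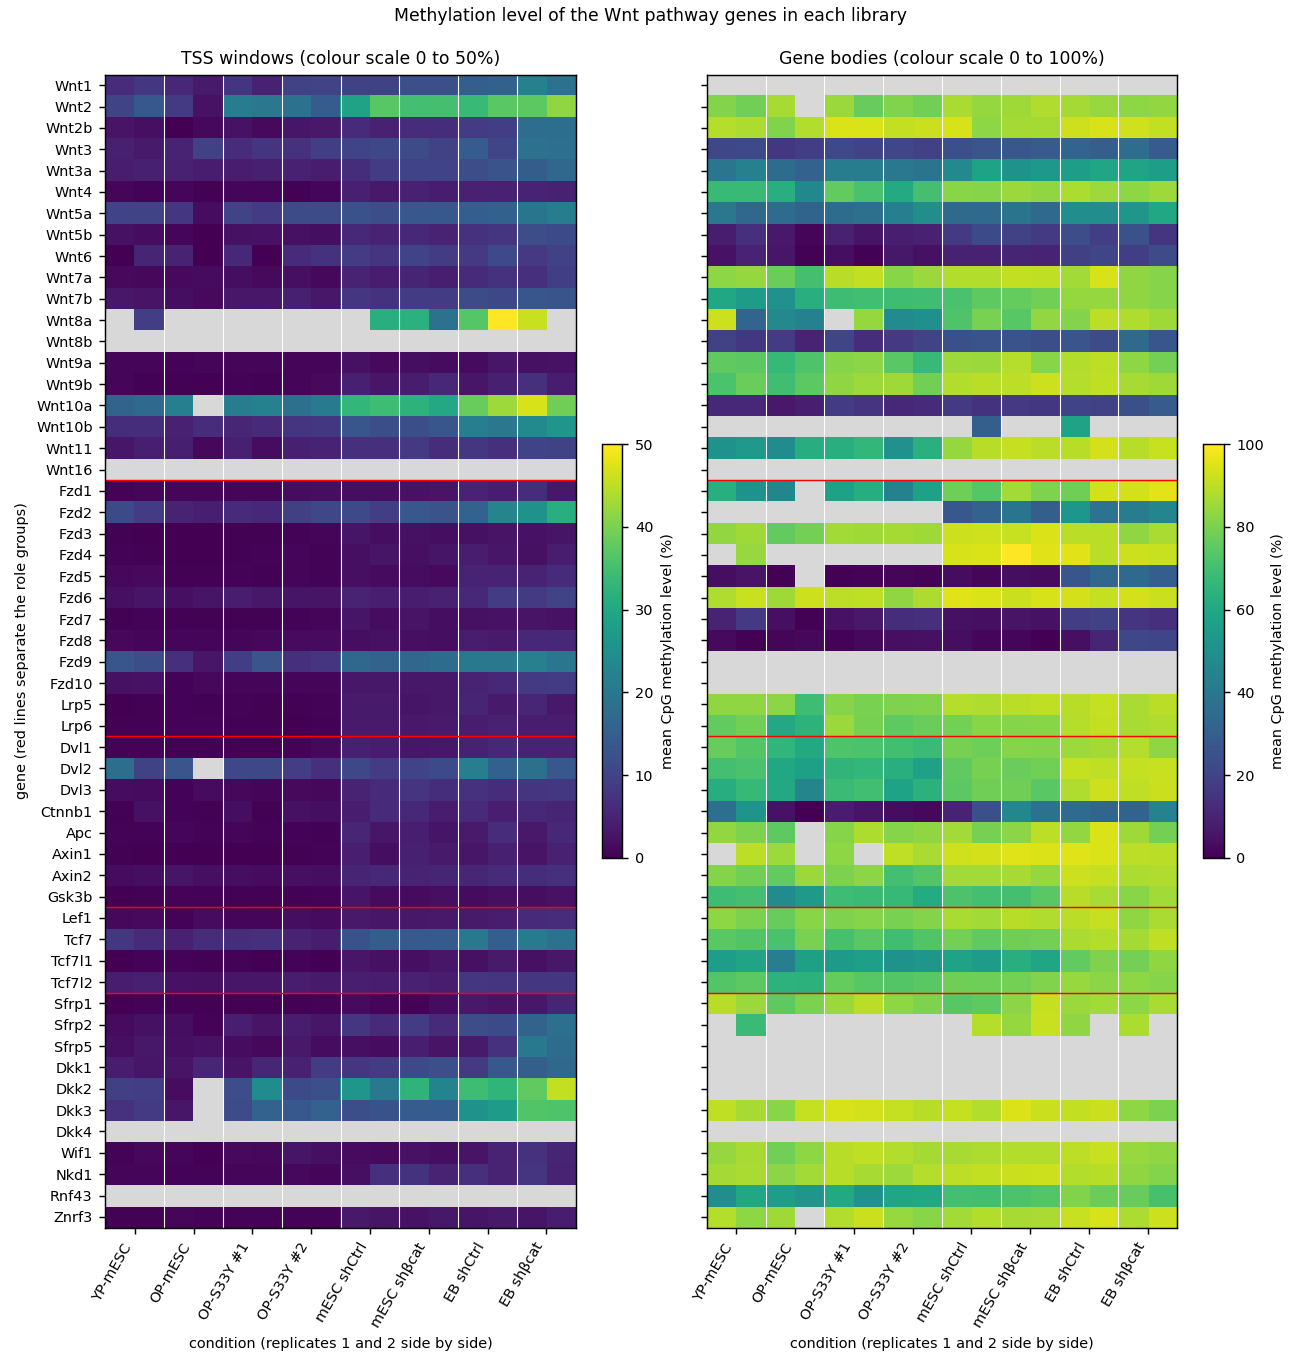
Mean CpG methylation level (%, colour) of each of the 54 Wnt pathway genes (vertical axis, grouped by role between red lines) in each of the 16 libraries (horizontal axis, replicates 1 and 2 side by side), at TSS windows (left, scale ending at 50%) and in gene bodies (right, scale ending at 100%). Grey marks fewer than 2 CpGs, the highest window value, 54.9% for Wnt8a in EB shCtrl replicate 2, lies above the scale, and windows are low in most genes while bodies are high except in a few, such as Fzd5, Fzd7, Fzd8 and Wnt6.

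A few bodies were low in methylation. Those of the receptors Fzd5, Fzd7 and Fzd8 stood at 4.57%, 13.2% and 1.56% in YP-mESCs, and those of the ligands Wnt5b, Wnt6 and Wnt10a at 10.8%, 7.11% and 11.3%. At the other end stood the bodies of Fzd6 at 89.8% and of the ligand Wnt2b at 88.3%. Over the CpGs read in all 16 libraries, the mean level in the bin centred 250 bases after the start was 1.00% in YP-mESCs (654 CpGs of 39 genes). It was 2.62% in shCtrl mESCs, 3.87% in shCtrl EBs and 5.29% in shβcat EBs. In the same order, the bin centred 1750 bases after the start stood at 7.76%, 9.0%, 19.7% and 25.4% (61 CpGs of 11 genes). Bodies stood at 59.9%, 65.6%, 71.9% and 70.6% (415 CpGs of 36 genes). YP-mESCs belong to another library set with a lower floor, described below, so the EBs are to be read against the shCtrl mESCs.

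The Wnt genes start in CpG-dense sequence. Within 4001 bases centred on the start, the members had a median of 169 CpGs against 85 for all genes, and by role the medians were 218.5 for receptors, 205.5 for nuclear factors, 164 for ligands, 143.5 for transducers and 117 for inhibitors. The 4 unread windows had a median of 63.5. The start here is the most upstream one annotated, whereas levels cover the windows of every annotated start. Ctnnb1, for example, had 78 CpGs counted and 151 read. In YP-mESCs and in shCtrl EBs, the conditions examined for this, the genes with sparser sequence by this count had the higher median level. At or under the median density of the 49 genes with a value, the median level was 2.38% in YP-mESCs and 7.32% in shCtrl EBs, against 1.15% and 4.72% above it. A core of the Tcf/Lef motif, ATCAAAG on either strand, lay within 250 bases before the start in 5 of the 54 genes (Wnt11, Wnt8a, Tcf7, Dkk4 and Nkd1), or 9.3%, against 3.0% of all genes.

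The libraries fall into 2 sets with different floors. Over the CpGs read in all 16 libraries, the median TSS-window level of the Wnt genes was 0.649% to 1.14% in the 8 libraries of the passage and S33Y series and 2.10% to 2.46% in the 4 mESC libraries with an shRNA. The same medians over all genes were 0.526% to 0.741% and 2.38% to 2.50%. Whether the sets differ in the cells or in the preparation cannot be told apart, so that each comparison stayed within a set. Comparisons that share libraries are not independent. The libraries of YP-mESCs, OP-mESCs, each clone, shCtrl mESCs and shCtrl EBs all served in several comparisons, and the interaction used all the shRNA libraries.

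With 2 libraries a side no permutation of 1 value gives a p under 0.33, and each p below comes from edgeR's fit across all genes. The first comparison asked what prolonged culture did to these genes. At TSS windows, 0 of 45 Wnt genes passed the test between OP-mESCs and YP-mESCs (edgeR, adjusted p under 0.05 and more than 10 percentage points), whereas 2.94% of all genes did. At an unadjusted p under 0.05 there were 9 of 45, against 22.6% of all genes, and limma called 1, Wnt2. Without regard to size, 6 of 45 were lower at an adjusted p under 0.05 and none higher, against 11.0% of all genes in either direction. Of these, 4 were Frizzled receptors. Fzd2 stood at 10.4% and 12.2% in the YP-mESC libraries and at 4.75% and 4.27% in those of OP-mESCs (15 CpGs, adjusted p = 0.0167). Both OP-mESC libraries lay below both YP-mESC libraries. For Fzd10 the means were 3.79% ± 0.531 and 0.981% ± 0.1999 (SD, n = 2 each, adjusted p = 1.59e-06, 60 CpGs). The other 4, Fzd5, Fzd9, the Wnt effector Tcf7l2 and the ligand Wnt5b, differed by 0.771 to 1.04 points. The median difference of the 45 genes was -0.279 points and that of all genes -0.153. Wnt2 had only 2 CpGs read in all 4 libraries, at 12.5% and 15.2% in YP-mESCs and at 0% and 2.38% in OP-mESCs (edgeR adjusted p = 0.0625).

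In gene bodies the OP-mESCs were less methylated, and 5 of 34 Wnt genes fell, none rose, and 26.1% of all genes fell. The 5 were Ctnnb1, Gsk3b, Dvl2, Dvl1 and Tcf7l1, which means that 4 of the 6 tested transducers and destruction complex genes were among them, beside 1 nuclear factor and none of 14 ligands, 5 receptors and 5 inhibitors. At any size, 11 genes were lower at an adjusted p under 0.05, against 38.8% of all genes in either direction. The median difference was -5.56 points, against -7.23 for all genes. Of 4 pluripotency genes 2 fell in the same comparison, Zfp42 from 16.1% and 15.8% to 1.92% and 0.603% (adjusted p = 3.08e-06) and Tdgf1 from 39.0% and 46.7% to 28.4% and 18.9% (2 CpGs, adjusted p = 0.0314). Their part in the result was not tested.

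Ctnnb1, which encodes β-catenin, had the largest of these differences, at 2 CpGs of an intron, 6986 and 7071 bases from the start (gene at chr9:120838334-120869625, mm9, plus strand). Their level was 36.5% and 32.1% in the YP-mESC libraries and 4.76% and 0% in the OP-mESC libraries. The groups lay far apart, with a difference of -31.9 points (34.3% ± 3.11 against 2.38% ± 3.37, SD, n = 2 each, edgeR adjusted p = 0.000289). The sequence around them is shown because 4 calls rest on these CpGs, with the measured CpGs in capitals. The stretch is chr9:120845312-120845414.
Ctnnb1 intron: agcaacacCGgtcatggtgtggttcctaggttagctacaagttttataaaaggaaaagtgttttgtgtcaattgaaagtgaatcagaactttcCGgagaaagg
The same 2 CpGs stood at 9.38% and 0% in shCtrl mESCs and at 14.6% and 32.5% in shCtrl EBs.

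Gsk3b, the kinase that marks β-catenin for degradation, fell from 68.6% and 69.2% in YP-mESCs to 50.04% and 52.8% in OP-mESCs (11 CpGs, -17.5 points, adjusted p = 0.000463). Of the 11 CpGs, 8 in introns and 3 in coding exons of a gene at chr16:38089087-38246170, 9 were lower. Of these, 3 neighbours in an intron at chr16:38135515-38135594 (mm9, plus strand) are shown with their CpGs in capitals, since they moved with both passage and differentiation.
Gsk3b intron: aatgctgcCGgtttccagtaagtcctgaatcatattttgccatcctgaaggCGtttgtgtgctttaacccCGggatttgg
Their mean level was 29.1% and 37.5% in YP-mESCs, and 8.27% and 4.27% in OP-mESCs. In the clones it was 17.9% and 15.4% (OP-S33Y #1) and 17.4% and 6.79% (OP-S33Y #2). It was 24.2% and 24.7% in shCtrl mESCs and 69.4% and 60.8% in shCtrl EBs. With shβcat it was 12.3% and 15.5% in mESCs and 58.4% and 60.8% in EBs. These 3 CpGs were not tested alone.

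Tcf7l1, a repressor of Wnt targets in mESCs that is also called Tcf3, was read at 44 CpGs, 36 of them in introns. It fell from 69.8% and 70.2% to 57.6% and 56.7% (-12.8 points, adjusted p = 0.00107), with 39 of 44 CpGs lower. The Dishevelled genes Dvl1 and Dvl2, which relay the signal from the receptors, were both read at 14 CpGs, mostly of coding exons. Dvl2 fell from 72.0% and 75.3% to 60.8% and 56.7% (adjusted p = 0.00904, 14 of 14 CpGs lower), and Dvl1 from 73.8% and 71.4% to 61.3% and 60.9% (adjusted p = 0.0170). For all 5 genes both OP-mESC libraries lay below both YP-mESC libraries. The calls of Dvl1 and Dvl2 were lost without OP-mESC replicate 2 or without either YP-mESC library, at adjusted p = 0.0594 to 0.184, where a lone library is assumed to vary like the other group. Axin2, a target gene that also limits the pathway, stood at 83.5% and 85.7% in YP-mESCs and at 86.8% and 84.2% in OP-mESCs, groups that overlapped (adjusted p = 0.849). Lower at an adjusted p under 0.05 but by less than 10 points were the ligands Wnt4, Wnt5b and Wnt7a, the co-receptor Lrp5 and the inhibitors Sfrp1 and Wif1.

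**Figure D2:**
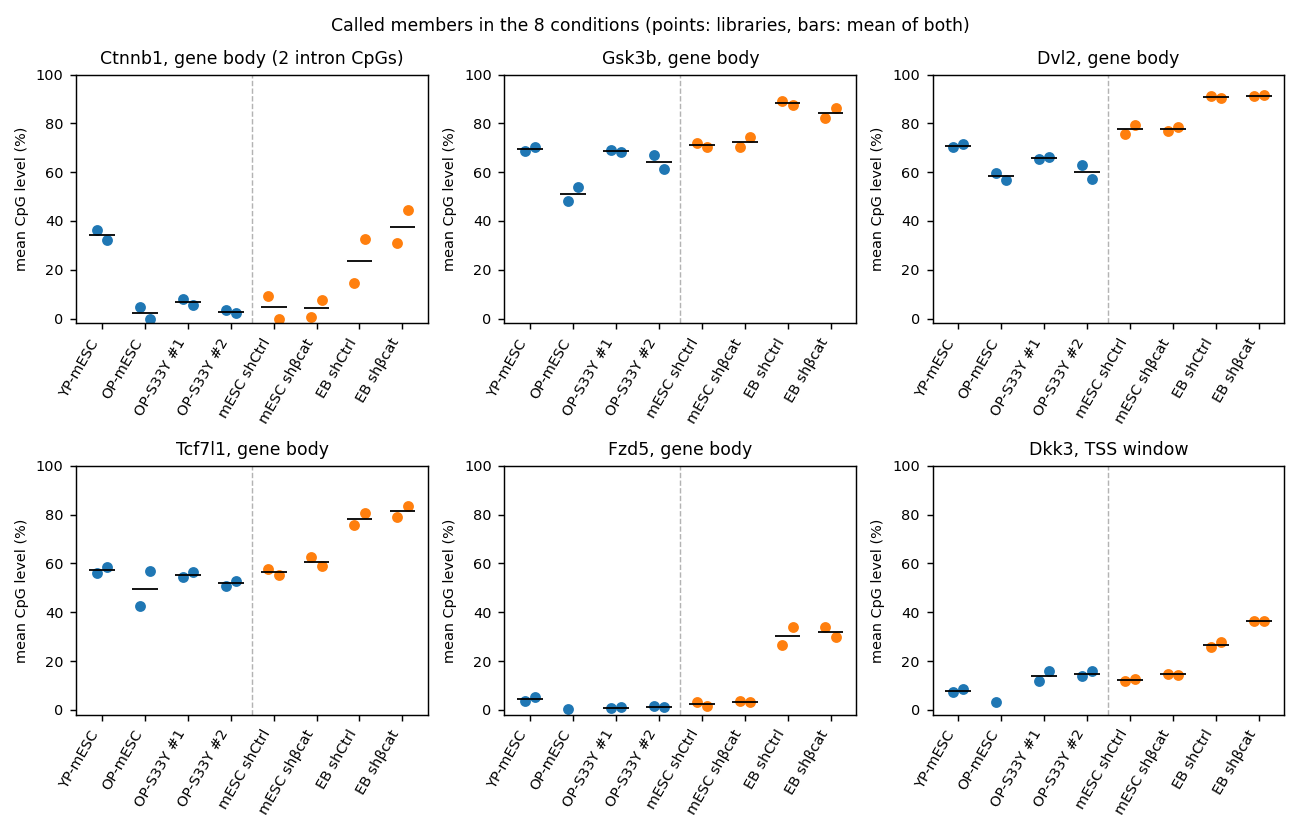
Mean CpG methylation level (%, vertical axis) of 6 Wnt genes in the 8 conditions (horizontal axis), with a point per library, a bar at the mean of both libraries and a dashed line between the library sets, over the 2 intron CpGs for Ctnnb1 and over each library's own CpGs for the other genes. Ctnnb1 falls from 34.3% in YP-mESCs to under 10% in the OP-mESC and S33Y libraries, and Fzd5 and Tcf7l1 are highest in the 4 EB libraries.

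The clones with stable β-catenin were compared with YP-mESCs and with OP-mESCs. At TSS windows 0 of 49 Wnt genes passed against YP-mESCs in OP-S33Y #1 (background 0.254% of all genes) and 0 of 49 in OP-S33Y #2 (background 1.08%). At an unadjusted p under 0.05 edgeR gave 7 (14.3%, all genes 11.0%) and 12 (24.5%, all genes 16.9%), and limma called 0 in either. Fzd10 was lower in both clones, at 0.741% ± 0.139 against 2.38% ± 0.212 in OP-S33Y #1 (adjusted p = 0.00678) and at 0.647% ± 0.101 against 2.21% ± 0.283 in OP-S33Y #2 (adjusted p = 0.000127). Fzd5 was lower in OP-S33Y #1 by 0.878 points (adjusted p = 0.0378). The ligand gene Wnt3 stood at 4.36% and 3.71% in YP-mESCs and at 7.24% and 9.94% in OP-S33Y #2, higher by 4.55 points (37 CpGs, adjusted p = 0.0199). In OP-S33Y #1 it stood at 6.67% and 7.59% (adjusted p = 0.262), so that both libraries of both clones lay above YP-mESCs. This was not particular to the clones. Over the 15 CpGs read in all 16 libraries, Wnt3 stood at 6.91% and 7.01% in OP-mESCs, against 4.66% and 3.38% in YP-mESCs.

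Against OP-mESCs, 0 of 45 passed in OP-S33Y #1 (background 3.16%) and 0 of 45 in OP-S33Y #2 (background 1.38%). At an unadjusted p under 0.05 there were 11 (24.4%, all genes 22.2%) and 15 (33.3%, all genes 19.5%), and limma called 1, Wnt2, in OP-S33Y #1 and 0 in OP-S33Y #2. In OP-S33Y #2, 5 ligand genes were higher at an adjusted p under 0.05 but by less than 10 points, against 6.36% of all genes at any size in either direction. Wnt1, the founding member of the family, stood at 3.07% and 3.84% in OP-mESCs and at 7.97% and 7.53% in OP-S33Y #2 (adjusted p = 0.0102), and Wnt2b at 0% and 1.02% against 4.02% and 3.56% (adjusted p = 0.0209). The other 3, Wnt5b, Wnt7b and Wnt11, were higher by 0.646 to 1.69 points. Of 15 ligands 14 were higher in OP-S33Y #2 (93.3%, against 82.2% of the tested Wnt genes and 69.6% of all genes), with a median difference of 1.26 points, while the median of all 45 Wnt genes was 0.389 and that of all genes 0.226.

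In gene bodies, 1 of 40 Wnt genes was called lower than in YP-mESCs in OP-S33Y #1 (background 1.35%) and 2 of 40 in OP-S33Y #2 (background 8.53%). Ctnnb1 was among them in both clones, at 8.004% and 5.59% in OP-S33Y #1 (adjusted p = 0.0121) and at 3.49% and 2.27% in OP-S33Y #2 (adjusted p = 0.000349), against the 36.5% and 32.1% of YP-mESCs. Reads of an expressed β-catenin transgene could not be told apart from those of the gene's own exons, but both CpGs are intronic. The call in OP-S33Y #1 was lost without OP-S33Y #1 replicate 2 or without either YP-mESC library (adjusted p = 0.0905 to 0.147). Dvl2 fell in OP-S33Y #2 from 70.2% and 71.4% to 63.0% and 57.2% (23 CpGs, adjusted p = 0.0377), and without either OP-S33Y #2 library its adjusted p was 0.0988 and 0.388.

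A single Wnt gene was called higher in a clone, against 0.553% of all genes called higher in OP-S33Y #2. This was the ligand gene Wnt7b, whose body lay above YP-mESCs in both libraries of both clones. Over each library's own CpGs, YP-mESCs had 59.9% and 55.2%. OP-S33Y #1, where the gene was not called, had 68.8% and 69.9%, and the other clone 69.1% and 69.4%. OP-mESCs had 50.8% and 62.9%, and the gene was not called there either. At the 3 CpGs read in all 16 libraries, OP-mESCs had 67.5% and 67.2% against 61.7% and 57.3% in YP-mESCs. At those CpGs a higher level was thus not particular to the clones. The test of OP-S33Y #2 used 25 CpGs, 24 of them intronic. Over these, Wnt7b stood at 59.0% and 48.8% in YP-mESCs and at 66.0% and 65.4% in the clone (+11.8 points, adjusted p = 0.0133). Without OP-S33Y #2 replicate 1 or 2 its adjusted p was 0.206 and 0.107, and without YP-mESC replicate 2 the difference was 6.70 points. Axin2 stood at 81.9% and 80.2% against 71.2% and 71.8% in OP-S33Y #2, groups that did not overlap (adjusted p = 0.0597). The receptor genes Fzd5 and Fzd7 were lower in OP-S33Y #1 by 3.66 and 6.87 points (adjusted p = 0.0169 and 0.0476), and Fzd5 in OP-S33Y #2 by 3.11 points (adjusted p = 0.00217). Among 4 pluripotency gene bodies Zfp42 fell in both clones, by 10.7 points in OP-S33Y #1 (adjusted p = 0.0134) and by 12.6 in OP-S33Y #2 (adjusted p = 6.44e-05), and Dppa3 rose in OP-S33Y #2 by 18.4 points (adjusted p = 0.0162). Their part in the result was not tested.

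Knockdown of β-catenin in mESCs was examined next. RRBS carries no transcript, so the depth of the knockdown was not measured here. At TSS windows 0 of 49 Wnt genes passed (background 0.0134%), with 2 (4.08%) at an unadjusted p under 0.05 against 5.51% of all genes, and limma called 0. In bodies 0 of 44 passed (background 0.184%), with 8 (18.2%) against 20.3% at an unadjusted p under 0.05 and 0 by limma. Ctnnb1, the target of the hairpin, had a window at 3.67% and 3.28% in shCtrl and 3.87% and 3.65% in shβcat mESCs (123 CpGs, adjusted p = 0.999), and its 2 intron CpGs stood at 9.38% and 0% against 0.833% and 7.69%. Axin2 was at 5.28% and 5.09% against 4.66% and 5.61% (adjusted p = 0.999). For both genes the groups overlapped or differed by under 1 point. The 2 windows under an unadjusted 0.05 were those of Wnt1, at 9.01% and 9.53% against 12.2% and 12.6%, and Fzd2, at 11.2% and 10.7% against 14.6% in both shβcat libraries.

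Differentiation of the control line into EBs was compared next. At TSS windows 46 of 49 (93.9%) were higher in shCtrl EBs than in shCtrl mESCs, against 80.9% of all genes, with a median difference of 1.87 points, against 1.04 over all genes. Only Dkk3 rose by more than 10 points, or 1 of 49, while 9.32% of all genes did. At any size 11 of 49 were higher at an adjusted p under 0.05 and none lower, against 19.2% of all genes in either direction. They were the inhibitors Dkk3, Sfrp1, Sfrp2 and Wif1, the receptors Fzd2, Fzd5 and Fzd10, the ligands Wnt1, Wnt7b and Wnt10b, and Tcf7l2. Over the CpGs read in all 16 libraries the median difference was 1.01 points, and with a window of 1 kb it was 0.991.

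Dkk3 encodes a secreted member of the Dickkopf family (chr7:119259533-119302571, mm9, minus strand). Its window stood at 11.9% and 9.89% in shCtrl mESCs and at 22.7% and 27.7% in shCtrl EBs (20 CpGs, 10.9% ± 1.45 against 25.2% ± 3.49, SD, n = 2 each, adjusted p = 0.00386 by edgeR). Both EB libraries lay above both mESC libraries, and 18 of the 20 CpGs were higher. The CpGs lie from 73 bases before to 799 bases after the start, 9 in the first coding exon, 6 in untranslated exon, 1 in an intron and 4 upstream. Both ends of the cluster are printed in gene direction, with the measured CpGs in capitals, chr7:119302608-119302653 upstream and chr7:119301772-119301903 in the coding exon.
Dkk3 upstream: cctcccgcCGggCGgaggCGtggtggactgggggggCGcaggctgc
Dkk3 first coding exon: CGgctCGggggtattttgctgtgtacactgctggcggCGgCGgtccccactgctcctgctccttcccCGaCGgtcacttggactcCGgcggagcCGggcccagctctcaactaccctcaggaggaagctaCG
The upstream CpGs stood at 21.6% and 10.53% in shCtrl mESCs and at 41.3% and 42.0% in shCtrl EBs, and the coding CpGs at 8.76% and 8.39% against 20.9% and 23.1%.

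The ligand gene Wnt10b was higher by 9.55 points, at 13.0% and 11.95% in mESCs against 22.3% and 21.7% in EBs (adjusted p = 0.00676). Fzd2 was at 12.1% and 11.6% against 19.9% and 22.6% (adjusted p = 0.0229), and Sfrp2, a secreted decoy for Wnt ligands, at 6.17% and 4.94% against 11.98% and 10.47% (adjusted p = 0.0381). In all 3 the EB libraries lay above the mESC libraries. Ctnnb1 was at 3.52% and 3.08% against 3.71% and 3.96% (adjusted p = 0.699) and Axin2 at 5.44% and 4.98% against 5.30% and 6.06% (adjusted p = 0.559).

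In gene bodies 13 of 44 Wnt genes rose in EBs and none fell, where 29.0% of all genes rose, and at any size 24 of 44 were higher at an adjusted p under 0.05, against 44.0% in either direction. The median difference was 5.99 points, against 4.85 over all genes, and 3.23 over the CpGs read in all 16 libraries. The 13 were 3 of 16 ligands (Wnt5a, Wnt7b and Wnt8a), 4 of 10 receptors (Fzd2, Fzd5, Fzd7 and Lrp6), 4 of 8 transducers and destruction complex genes (Ctnnb1, Dvl2, Dvl3 and Gsk3b), 2 of 4 nuclear factors (Tcf7 and Tcf7l1) and none of 6 inhibitors.

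**Figure D3:**
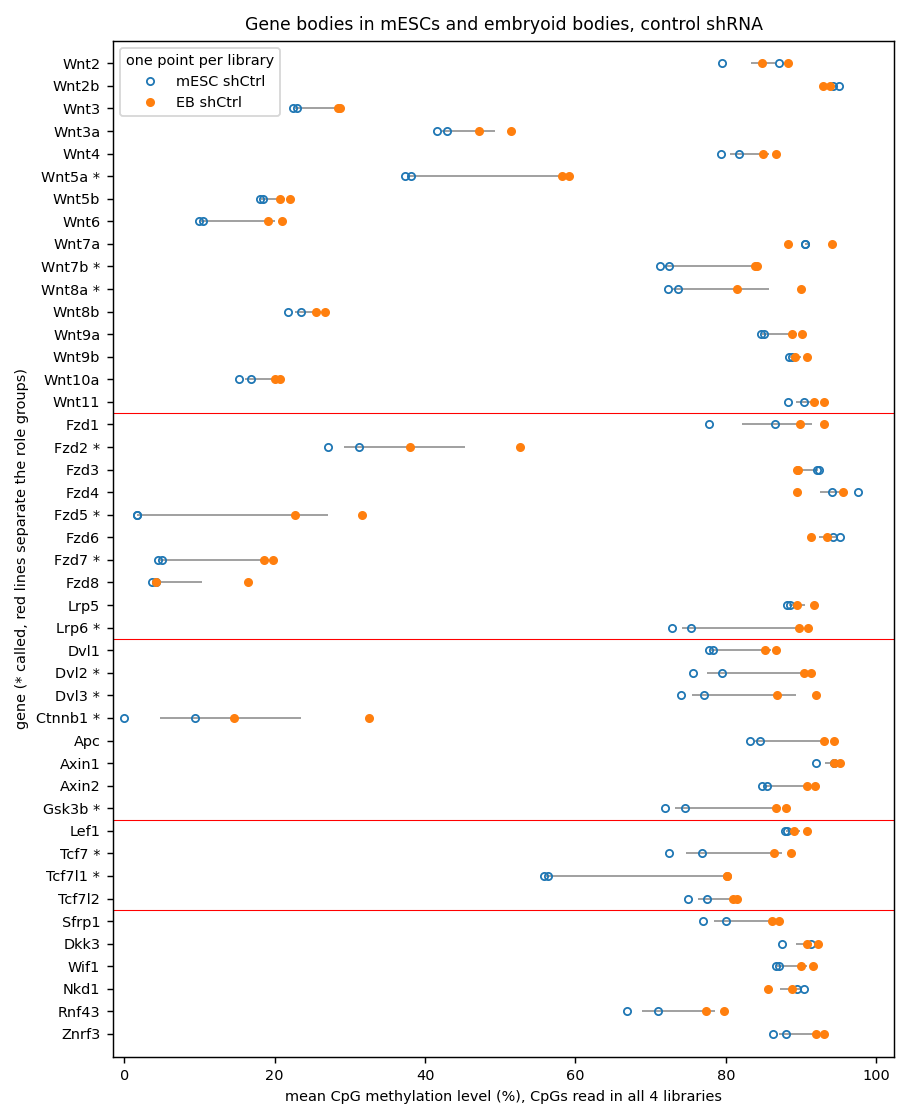
Mean CpG methylation level in gene bodies (%, horizontal axis) of the 44 tested Wnt genes (vertical axis, grouped by role) in the 2 shCtrl mESC libraries (open blue points) and the 2 shCtrl EB libraries (filled orange points), over CpGs read in all 4, with a grey line between the group means and an asterisk for a called gene. The EB points lie to the right in most genes, and the longest lines belong to Fzd5, Tcf7l1 and Wnt5a.

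Fzd5, a receptor gene whose coding sequence is a single exon, had the largest rise. Its body stood at 1.70% and 1.67% in shCtrl mESCs and at 22.7% and 31.6% in shCtrl EBs (25 CpGs, 25.5 points, adjusted p = 1.12e-09). All 25 CpGs were higher, 23 of them in the coding exon and 2 in the untranslated part. The gene lies at chr1:64777134-64784324 (mm9, minus strand). A stretch of the coding exon, chr1:64781680-64781887, is shown in gene direction, with the 10 measured of its 16 CpGs in capitals.
Fzd5 coding exon: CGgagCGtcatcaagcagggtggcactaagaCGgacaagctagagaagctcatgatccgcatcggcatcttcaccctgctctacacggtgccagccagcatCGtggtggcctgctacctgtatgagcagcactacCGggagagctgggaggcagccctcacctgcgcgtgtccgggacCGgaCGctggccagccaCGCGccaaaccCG
Over these 10 CpGs the level was 3.17% and 2.16% in shCtrl mESCs, 3.56% and 3.22% in shβcat mESCs, 26.6% and 43.3% in shCtrl EBs, and 35.3% and 38.7% in shβcat EBs. In the passage and S33Y series it was 3.39% and 5.07% in YP-mESCs and 0% to 1.66% in the 5 libraries of OP-mESCs and clones that read them. The TSS window of Fzd5 was at 2.06% and 1.51% in shCtrl mESCs and at 4.91% and 5.32% in EBs, lower than the coding exon in both EB libraries.

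Fzd7, another receptor gene with a single coding exon (chr1:59538991-59543791, mm9, plus strand), rose from 5.03% and 4.48% to 18.6% and 19.8% over 18 CpGs, all of them higher (14.5 points, adjusted p = 1.17e-07). The stretch shown holds 16 of them (chr1:59541123-59541348, measured CpGs in capitals).
Fzd7 coding exon: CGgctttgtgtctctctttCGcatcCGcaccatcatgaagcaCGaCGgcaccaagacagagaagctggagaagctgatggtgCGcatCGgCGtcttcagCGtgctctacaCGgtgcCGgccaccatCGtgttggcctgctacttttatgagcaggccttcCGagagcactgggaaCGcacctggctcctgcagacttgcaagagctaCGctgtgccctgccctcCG
Over these it stood at 5.23% and 5.46% in shCtrl mESCs and at 21.0% and 22.9% in shCtrl EBs. In YP-mESCs it was 11.7% and 16.2%, and in OP-S33Y #2 15.6% and 16.5%, while OP-S33Y #1 was at 5.36% and 8.32%.

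Tcf7l1 rose from 56.4% and 55.9% to 80.2% and 80.1% (85 CpGs, 77 of them intronic, 24.0 points, adjusted p = 1.03e-07), and 73 of its CpGs were higher. Tcf7, which encodes Tcf1, rose from 76.8% and 72.5% to 86.4% and 88.6% (12.9 points, adjusted p = 0.000212). Lef1 and Tcf7l2 were not called.

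Wnt5a, a ligand of the non-canonical branches, rose from 38.1% and 37.3% to 59.2% and 58.2% (16 CpGs, 11 of them coding, adjusted p = 4.77e-05). Wnt7b rose from 71.3% and 72.4% to 83.9% and 84.2% (33 CpGs, adjusted p = 2.56e-05), though at the 3 of its CpGs read in all 16 libraries it was lower by 2.37 points. Wnt8a rose from 72.4% and 73.6% to 81.5% and 90.0% (8 CpGs, adjusted p = 0.00747). Without EB shCtrl replicate 2 its difference was 8.55 points (adjusted p = 0.139).

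Lrp6, a co-receptor, rose from 75.3% and 72.9% to 89.7% and 91.0% (14 CpGs, 16.2 points, adjusted p = 4.48e-05). Dvl2 rose from 75.6% and 79.4% to 91.3% and 90.3%, and Dvl3 from 74.0% and 77.0% to 86.8% and 92.0% (13.3 and 13.9 points). Gsk3b rose from 71.9% and 74.6% to 88.0% and 86.6% (14.1 points, adjusted p = 0.000113). For these genes both EB libraries lay above both mESC libraries. Ctnnb1 and Fzd2 rested on few CpGs. Ctnnb1 rose from 9.38% and 0% to 14.6% and 32.5% (2 CpGs, adjusted p = 0.0116), and without EB shCtrl replicate 2 or mESC shCtrl replicate 2 its adjusted p was 0.113 and 0.132. Fzd2 rose from 27.1% and 31.3% to 52.6% and 37.9% (3 CpGs of the untranslated region, adjusted p = 0.0441), and without EB shCtrl replicate 1 or either mESC library its adjusted p was 0.0639 to 0.196. limma called neither of them. Axin2 was higher by 6.19 points, at 85.4% and 84.8% against 91.8% and 90.8% (adjusted p = 0.00213).

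Knockdown of β-catenin in EBs left no Wnt gene past the test at TSS windows, 0 of 49 by edgeR (background 0%, that is 0 of 14637 genes) and 0 by limma. In shβcat EBs 41 of 49 windows (83.7%) were higher than in shCtrl EBs, against 62.4% of all genes, with a median difference of 1.31 points against 0.230. In 30 of 49 both shβcat libraries lay above both shCtrl libraries, against 31.8% of all genes. At an unadjusted p under 0.05 there were 14 (28.6%), all higher, against 9.05% of all genes. Since shβcat EBs were reported to fall apart, a different mix of cells cannot be told apart from an effect of the knockdown within cells. Pluripotency genes were read in the same libraries. Their windows gave 0 calls of 4, among them Esrrb at 21.7% and 21.3% in shCtrl EBs against 31.3% and 28.7% in shβcat EBs (adjusted p = 0.507) and Pou5f1 at 11.1% and 15.3% against 12.7% and 8.58% (adjusted p = 0.937). Of 4 bodies 1 rose, that of Zfp42 (Rex1), from 63.5% and 70.6% to 79.9% and 83.4% (adjusted p = 0.00407). Their part in the result was not tested. Without EB shβcat replicate 2 the median difference of the Wnt genes was 0.776 points, and across the other alternatives it was 1.28 to 1.51.

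By role the median difference was 3.58 points for inhibitors, of which 9 of 9 were higher, 2.50 for ligands (13 of 16), 1.89 for nuclear factors (3 of 4), 0.891 for receptors (11 of 12) and 0.164 for transducers and the destruction complex (5 of 8). The 14 genes under an unadjusted 0.05 were 4 inhibitors (Sfrp1, Sfrp5, Dkk1 and Dkk2), 4 ligands (Wnt1, Wnt2b, Wnt3 and Wnt5b), 4 receptors (Fzd1, Fzd2, Fzd8 and Fzd10) and the nuclear factors Lef1 and Tcf7. None of the 8 transducers and destruction complex genes was among them.

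**Figure D4:**
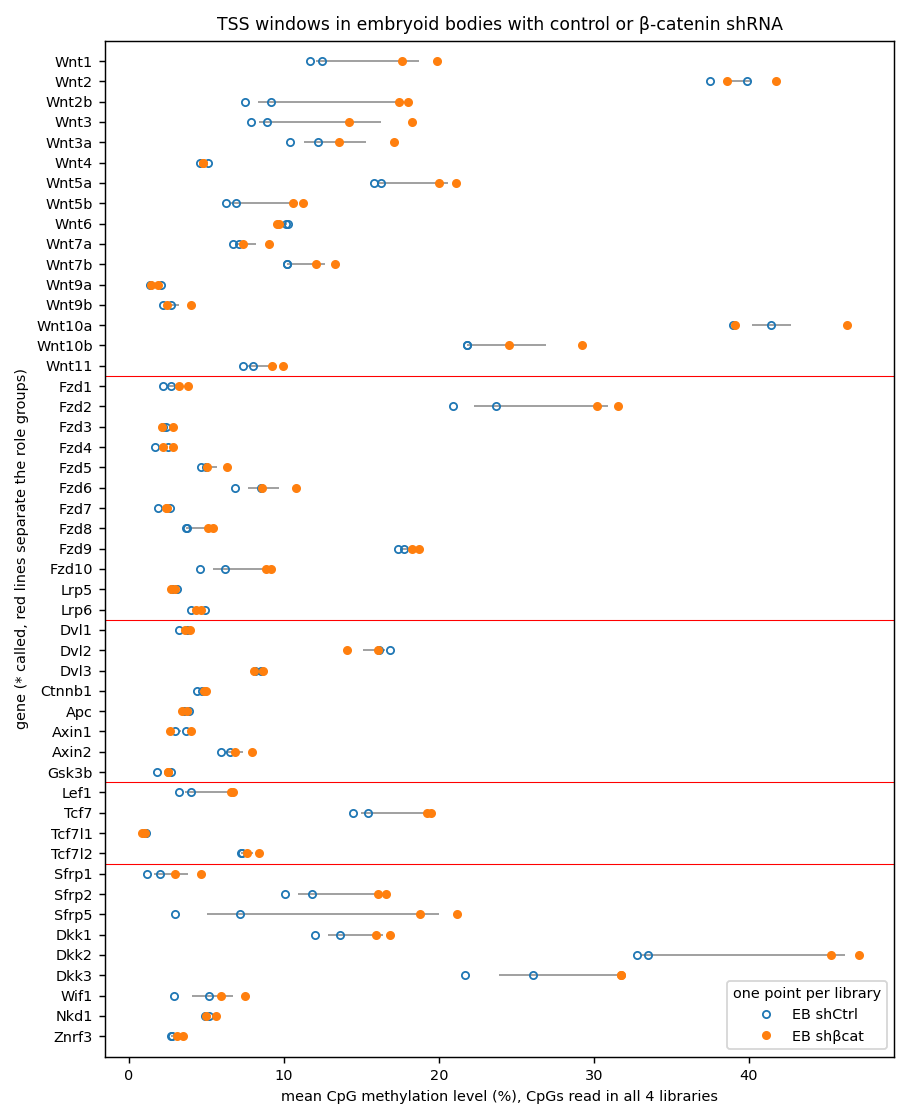
Mean CpG methylation level at TSS windows (%, horizontal axis) of the 49 tested Wnt genes (vertical axis, grouped by role) in the 2 shCtrl EB libraries (open blue points) and the 2 shβcat EB libraries (filled orange points), over CpGs read in all 4, with a grey line between the group means. No gene is called, the filled points lie to the right in most ligands and inhibitors, and the transducers and destruction complex genes lie close together.

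Sfrp5, a secreted Wnt decoy, had the largest of these differences. Its window stood at 2.97% and 7.19% in shCtrl EBs and at 21.2% and 18.8% in shβcat EBs (8 CpGs, 5.08% ± 2.98 against 19.99% ± 1.71, SD, n = 2 each, adjusted p = 0.314 by edgeR). The groups did not overlap, and each of the 8 CpGs was higher in shβcat EBs, with medians of 4.89% and 18.1%. Sfrp5 was called over the CpGs read in all 16 libraries, with at least 20 reads per CpG, and without either shβcat EB library. In mESCs the same CpGs had medians of 0.641% with shCtrl and 2.69% with shβcat, but their mean hardly changed, as given with the interaction below. Single CpGs moved both ways there. At 111 bases after the start the level was 6.92% with shCtrl and 4.04% with shβcat, and at 100 bases it was 0% and 3.05%. Dkk2, at 5 CpGs, stood at 33.5% and 32.8% against 47.1% and 45.3% (13.1 points, adjusted p = 0.377).

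**Figure D5:**
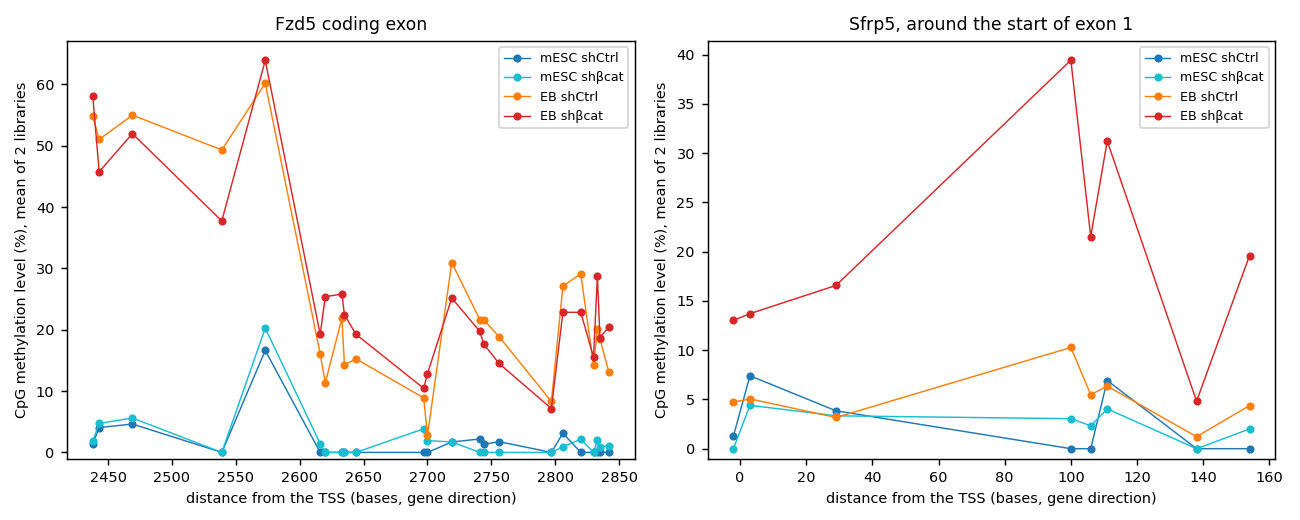
Methylation level (%, vertical axis, mean of 2 libraries) of single CpGs against their distance from the TSS in bases along the gene (horizontal axis), for 23 CpGs of the Fzd5 coding exon (left) and 8 CpGs around the start of Sfrp5 (right), in the 4 shRNA conditions (colours). In Fzd5 the medians are 0% and 0.926% in mESCs and 20.2% and 22.5% in EBs, and in Sfrp5 the line of shβcat EBs lies above that of shCtrl EBs at each CpG.

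Among the ligands, Wnt2b stood at 7.48% and 9.18% in shCtrl EBs and at 17.4% and 18.04% in shβcat EBs (53 CpGs, 9.40 points, adjusted p = 0.338). Wnt3, required for gastrulation in the mouse, was at 7.92% and 8.92% against 14.2% and 18.3% (adjusted p = 0.338), and Wnt1 at 11.7% and 12.5% against 19.9% and 17.6% (adjusted p = 0.389). In all 3 both shβcat libraries lay above both shCtrl libraries. Of the receptors, Fzd2 was at 20.9% and 23.7% against 30.2% and 31.6% (adjusted p = 0.502) and Fzd10 at 4.64% and 6.19% against 8.88% and 9.16% (adjusted p = 0.360). Lef1 was at 3.28% and 3.99% against 6.73% and 6.61% (87 CpGs, adjusted p = 0.338). The hairpin's target Ctnnb1 was at 4.43% and 4.73% against 4.98% and 4.87% (98 CpGs, adjusted p = 0.997), and Axin2 at 5.97% and 6.57% against 6.85% and 7.95% (125 CpGs, adjusted p = 0.827), differences of 0.348 and 1.13 points.

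The difference between the effect of shβcat in EBs and in mESCs was tested as an interaction. It passed in 0 of 49 Wnt genes and in 0% of all genes by edgeR, while limma called 1, Sfrp5. The effect, taken with its sign, was more positive in EBs than in mESCs in 40 of 49 (81.6%), against 55.9% of all genes. At an unadjusted p under 0.05 there were 5 (10.2%, against 7.04%), namely Sfrp5, Wnt3, Lef1, Wnt2b and Tcf7l2. For Sfrp5 the effect was 14.9 points in EBs and -0.0377 points in mESCs (adjusted p = 0.481).

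In gene bodies no Wnt gene was called between shβcat and shCtrl EBs, 0 of 44 (background 1.71%), with 18 (40.9%) at an unadjusted p under 0.05 against 25.5% of all genes and 0 by limma. At any size 4 of 44 were lower at an adjusted p under 0.05, against 7.88% of all genes in either direction. Dkk3 stood at 91.0% and 92.2% in shCtrl EBs and at 83.6% and 80.4% in shβcat EBs (11 CpGs, -9.63 points, adjusted p = 0.0231), and Wnt9a at 88.6% and 90.2% against 84.2% and 79.0% (adjusted p = 0.0370). Axin2 was at 92.3% and 91.3% against 86.5% and 87.9% (37 CpGs, adjusted p = 0.0232) and Lef1 at 89.1% and 90.6% against 83.1% and 86.6% (63 CpGs, adjusted p = 0.0431). In each the shβcat libraries were the lower ones. The bodies of all 6 tested inhibitors were lower, in a comparison where 26.9% of all bodies were higher. The median difference of the Wnt genes was -1.42 points and that of all genes -2.35. The 2 intron CpGs of Ctnnb1 went the other way, from 14.6% and 32.5% to 30.8% and 44.3%, groups that overlapped (adjusted p = 0.136).

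A further list of 44 pathway genes, 38 regulators and 6 target genes, was read beside the 54. In OP-mESCs none of its 35 tested windows was called (all genes 2.94%), and 6 of its 26 tested bodies fell (all genes 26.1%), those of Tle2, Tle3, Pygo1, Dact1, Celsr1 and Kremen2. Tle3, a Groucho-type co-repressor, stood at 61.7% and 49.7% in YP-mESCs and at 29.0% and 27.3% in OP-mESCs (adjusted p = 0.000169). In OP-S33Y #2, 1 of 33 bodies fell (all genes 8.53%), that of Vangl2, a planar polarity gene, from 39.8% and 48.4% to 28.3% and 31.4% (adjusted p = 0.0195). In shCtrl EBs 15 of 39 bodies rose (all genes 29.0%), the most in Frzb, a secreted inhibitor of the Sfrp family, from 16.7% and 27.1% to 72.4% and 80.3% (9 CpGs, adjusted p = 1.92e-07). Vangl2 and Dact1 rose by 39.4 and 38.6 points. At TSS windows the target gene Cdx1 rose from 7.03% and 7.72% to 18.5% and 20.6% (54 CpGs, adjusted p = 0.000893), 1 of 42 (all genes 9.32%). In shβcat EBs 0 of 41 windows passed (all genes 0%), 33 were higher (80.5%, all genes 62.4%) and 12 (29.3%, all genes 9.05%) had an unadjusted p under 0.05. All 6 target genes were higher, by a median of 5.43 points.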

How the data were processed

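The authors made the libraries by RRBS and deposited, for each cytosine with at least 10 reads, its coverage as a read count and the percent of reads with C and with T. The submitters' processing notes name CASAVA 1.8.2, Trim Galore 0.2.8, Bismark 0.7.9 and the mm9 genome. Methylated and unmethylated reads were taken from the deposited coverage and percent, strands were summed per CpG, and CpGs were placed in TSS windows and gene bodies of 22247 protein-coding genes (GENCODE vM1).

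Each comparison used CpGs read in all its libraries and genes with at least 2 of them. Reads were summed per gene and tested with edgeR 4.0.16 (quasi-likelihood F test, methylated against unmethylated reads), with p-values adjusted by Benjamini-Hochberg over all genes tested, in 15 comparisons (8 of TSS windows, 6 of gene bodies and 1 interaction). A gene was called at an adjusted p under 0.05 and a mean CpG difference above 10 points. limma 3.58.1 on mean CpG percentages, other read and CpG minimums, a 1 kb window, a 25-point threshold, a replicate block and leaving out each library were alternatives. R 4.3.3 and Python 3.11.15 were used, and the fit was tested on simulated data. Of 100 simulated rises of 10 points, 69 reached an adjusted p under 0.05 at TSS windows (shβcat against shCtrl EBs). In gene bodies (shCtrl EBs against mESCs) 32 of 100 did. Of 100 rises of 20 points, 98 and 99 did. A true difference near 10 points could thus be missed, in bodies more often than not.

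Full values are given for called members, Ctnnb1 and Axin2, and the highest and lowest TSS-window level of each role is named, while members named for an adjusted p at any size or an unadjusted p were added after their values were seen. Genes outside the 54 are named from the further pathway list where called and from a list of pluripotency genes. Members and lists were chosen with earlier results of these data known. PCR duplicates cannot be removed from RRBS reads, so read depth overstates the number of molecules.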

Additional observations from a re-analysis of the deposited data

How the results depend on the processing

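Of 483 recomputed differences of named Wnt genes, 432 stayed on the same side of the threshold. Another 50 lost their call but kept the direction. A called difference reversed in 1, the gene body of Wnt7b in EB shCtrl against mESC shCtrl. It stood at -2.37 points over the 3 CpGs read in all 16 libraries. Differences that were not called could change sign and still count among the 432. The 483 include the windows of Ctnnb1 and Axin2 in every TSS-window comparison and in the interaction. These had no call to lose, and they stayed within -0.731 and 1.75 points when 1 library was left out. The 50 losses and the 1 reversal all fell on called differences. The share of 432 in 483 thus overstates how often a call held. With 1 library left out, the Axin2 window in OP-S33Y #1 against YP-mESCs ranged from -0.0448 to 0.125 points. The Ctnnb1 window in OP-mESCs against YP-mESCs ranged from -0.141 to 0.0785. Counts of called Wnt genes at TSS windows moved as follows. With limma, 1 was called in OP-mESCs against YP-mESCs, 1 in OP-S33Y #1 against OP-mESCs and 1 in the interaction. With at least 20 reads per CpG, 1 was called in either clone against YP-mESCs, 1 (Sfrp5) in shβcat EBs and 4 in shCtrl EBs against mESCs. Over the CpGs read in all 16 libraries, 1 (Sfrp5) was called in shβcat EBs and 2 in shCtrl EBs, where Dkk3 could not be tested. A 1 kb window gave 2 in shCtrl EBs and a 25-point threshold 0. Leaving out 1 library gave 0 to 1 in OP-S33Y #2 against YP-mESCs, 0 to 1 in shβcat EBs and 1 to 2 in shCtrl EBs.

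In gene bodies a 25-point threshold left 1 call each in OP-mESCs (Ctnnb1), OP-S33Y #2 (Ctnnb1) and shCtrl EBs (Fzd5). In OP-S33Y #1, 2 were called with at least 20 reads and 0 with at least 5 CpGs per gene. In OP-S33Y #2, 1 was called with at least 20 reads and 1 with limma. Leaving out 1 library gave 3 to 6 in OP-mESCs, with 3 without YP-mESC replicate 1, 0 to 1 in OP-S33Y #1, 1 to 4 in OP-S33Y #2 and 0 to 2 in shβcat EBs. The causes were not tested.

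Over all genes, the deviations of same-numbered libraries were hardly correlated (-0.018 to 0.040). That cannot exclude a pairing, since most TSS windows lie near the floor, and the labels give only a number. With the replicate number as a block, 1 Wnt gene (Wnt2) was called at TSS windows in OP-mESCs, 2 (Dkk2 and Sfrp5) in shβcat EBs, where 306 of all genes were called in place of 0, and 0 in the bodies of OP-S33Y #1. The block left 5 calls in the bodies of OP-mESCs, 2 in those of OP-S33Y #2 and 12 in those of shCtrl EBs. With 2 libraries per condition and a median of 22 to 42 reads per CpG, a difference that missed the threshold is not shown to be absent.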
